A study of Capra hircus with 29 samples.

Results

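Antiviral sensing in goat oocytes was described through 9 genes: TLR3, LOC102170446, IFIH1, DDX58, MAVS, EIF2AK2, IRF3, MX1 and ISG15. The 9 members were taken by gene symbol from a table of 21343 genes, and each symbol stood on 1 gene. The table holds RNA-seq values for 29 oocyte samples of Ji'ning grey goat. Oocytes were taken from follicles of 3 sizes in 2 populations, one of high fertility (at least 3 kids per litter) and one of low fertility (at most 2 kids per litter). The groups were HLO and LLO for large follicles, HMO and LMO for medium follicles, and HSO and LSO for small follicles, where H and L stand for the fertility population. There were 5 samples per group and 4 of HSO, whose numbers were 1, 3, 4 and 5. All animals were of 1 breed, and the labels describe no treatment. Each sample held a few oocytes, and the labels do not tie samples to goats. Per the study's methods, which state it for the high fertility population, the oocytes of a follicle size were first combined over goats and then divided, so the samples of such a group are portions of a common pool. P-values therefore measure the spread between portions, not between animals. The values were FPKM, fragments scaled to exon length and to the mapped fragments of the sample, so levels can be compared between genes per unit of length. The values carry no fragment counts, so no counting error is given for a single value, and a 0 in the table is given as listed, not as absence of a transcript.

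Cells detect viral RNA with receptors in 2 places. TLR3 is a membrane receptor of the endosome that binds double-stranded RNA. DDX58 (RIG-I) and IFIH1 (MDA5) are helicases that bind viral RNA in the cytosol and signal through MAVS, an adaptor on the outer mitochondrial membrane. Both routes activate IRF3, a transcription factor that turns on interferon genes. Interferon in turn raises the effectors MX1, a GTPase that blocks viruses, and ISG15, a ubiquitin-like modifier, and also EIF2AK2 (PKR), a kinase that stops translation when it binds double-stranded RNA. LOC102170446 (ENSCHIG00000020830) is described in the table as tripartite motif-containing protein 34. Tripartite motif (TRIM) proteins are a large family, several members of which restrict retroviruses. Mouse oocytes are known for a weak interferon response and for using double-stranded RNA in RNA interference.

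The samples carried most of the listed markers of oocytes. The summed level of the oocyte markers, ZP3, ZP4, GDF9, ZP2, BMP15 and OOEP foremost, ranged from 628 to 9177 FPKM per sample. Of the 11 entries of this list, 9 had a median above 0.5 FPKM. NLRP5 had a median of 0.274 FPKM. The DAZL entry ENSCHIG00000016605 was listed at 0 in all 29 samples, and the entry ENSCHIG00000017877 had a median of 0.888 FPKM. Granulosa cell markers summed to 0.206 to 7.91 FPKM, and the median of each of the 10 was under 0.5 FPKM. INHBA reached 5.21 FPKM in LMO replicate 5. Leukocyte markers summed to 0.0685 to 0.938 FPKM, with CD14, CD74 and TYROBP listed at 0 in all 29 samples. The FPKM of a sample summed to between 347806 and 490048, apart from LMO replicate 2 at 222697.

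The 9 genes fell into 2 sets by level. DDX58, TLR3, IRF3 and LOC102170446 exceeded 0.5 FPKM in at least 4 samples, the limit for entering the tests. IFIH1, MAVS, EIF2AK2, MX1 and ISG15 did not exceed 0.5 FPKM in any of the 29 samples. By mean FPKM over the samples, DDX58 lay above 76.2% of the genes in the table, TLR3 above 72.0%, LOC102170446 above 67.8% and IRF3 above 65.4%. EIF2AK2 lay above 50.1%, MX1 above 42.2%, MAVS above 35.5%, ISG15 above 33.6% and IFIH1 above 31.6%. Of all genes, 45.4% passed the limit over the 29 samples.

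**Figure D1:**
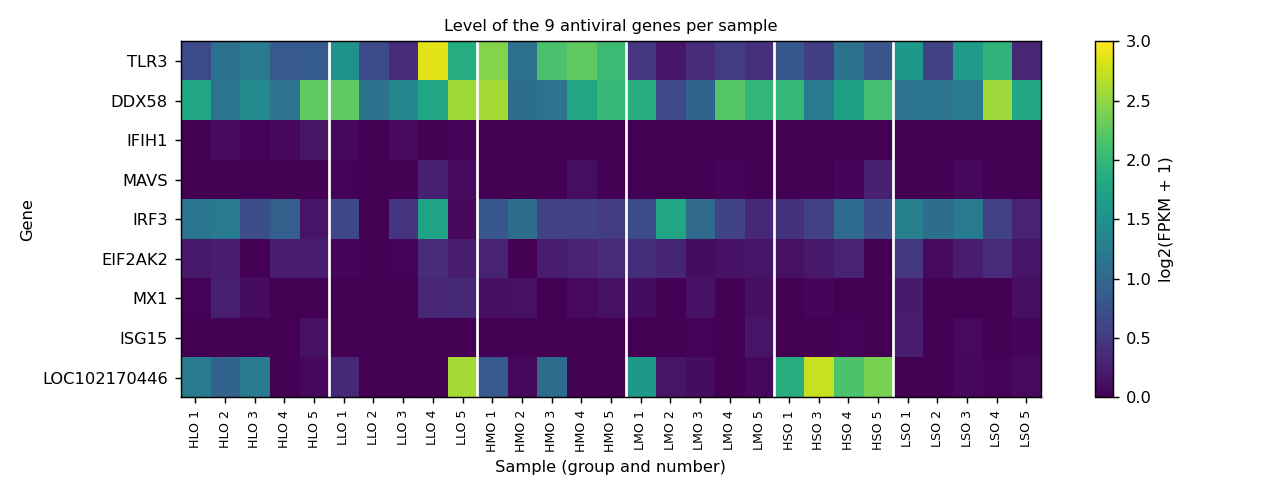
Level of the 9 genes (rows) in each of the 29 samples (columns, by group and sample number), as log2(FPKM + 1) from dark (0) to bright (3). DDX58 is bright in every group, TLR3 in HMO and in single LLO and LSO samples, LOC102170446 in HSO, and the rows of IFIH1, MAVS, EIF2AK2, MX1 and ISG15 stay dark throughout.

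TLR3 (ENSCHIG00000015873) was the gene of this set with the widest fertility difference in medium follicles, and it was selected on that difference, which is therefore given without a test. In HMO the 5 samples, in the order of their numbers, stood at 4.45, 1.13, 3.41, 3.82 and 3.15 FPKM. In LMO they stood at 0.387, 0.131, 0.298, 0.451 and 0.325 FPKM. The groups did not overlap, and the lowest HMO sample was above the highest LMO sample. Mean TLR3 was 3.19 ± 1.25 FPKM (SD, n = 5) in HMO and 0.318 ± 0.120 FPKM (SD, n = 5) in LMO, a ratio of 10.02. The ratio was 8.74 without LMO replicate 2, the sample with the lowest FPKM sum. On the scale of log2(FPKM + 1) the difference was 1.61, and because this scale compresses low values it was 2.91 with a pseudocount of 0.1. TLR3 passed the filter in medium follicles through HMO alone. Of the 8390 genes compared there, 1.70% had groups that did not overlap. In pooled oocytes, fewer oocytes carrying a transcript and less transcript per oocyte cannot be told apart. Summed granulosa markers ranged from 0.506 to 1.18 FPKM in HMO and from 0.493 to 7.91 FPKM in LMO, and summed leukocyte markers from 0.176 to 0.749 and from 0.289 to 0.938 FPKM. Oocyte markers summed to 1283 to 3229 FPKM in HMO and 1116 to 3851 FPKM in LMO, and the part of any of these in the result was not tested.

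In large and small follicles TLR3 lay the other way, within the spread of the samples. The HLO samples stood at 0.599, 1.18, 1.35, 0.815 and 0.836 FPKM. The LLO samples stood at 1.89, 0.595, 0.280, 6.32 and 2.63 FPKM, so LLO held both a sample below all HLO samples and the highest TLR3 value of the series. The difference, high minus low fertility, was -0.50 on the log2(FPKM + 1) scale (SE 0.414, 95% interval -1.39 to 0.39, adjusted p = 0.828 by limma). In small follicles the HSO samples 1, 3, 4 and 5 stood at 0.780, 0.471, 1.17 and 0.750 FPKM. The LSO samples stood at 2.04, 0.507, 2.14, 2.86 and 0.252 FPKM. Samples 1, 3 and 4 of LSO were above every HSO sample, and sample 5 was below all of them. The difference was -0.39 (SE 0.340, 95% interval -1.14 to 0.35, adjusted p = 0.880 by limma). Both intervals take in differences of either sign.

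By mean, TLR3 ran from HMO at 3.19 FPKM through LLO at 2.34, LSO at 1.56, HLO at 0.957 and HSO at 0.794 to LMO at 0.318 FPKM. Neighbours in this order overlapped, except HSO and LMO. All 5 LMO samples were under 0.5 FPKM, whereas in LLO and LSO the samples spread widely, with SDs of 2.42 and 1.13 FPKM against 0.305 and 0.289 FPKM in HLO and HSO. Over both populations its mean log2(FPKM + 1) was 1.21 in large, 1.20 in medium and 1.05 in small follicles. Neither follicle size nor a change of the fertility difference with follicle size was tested for TLR3, since both use the samples on which the gene was chosen.

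**Figure D2:**
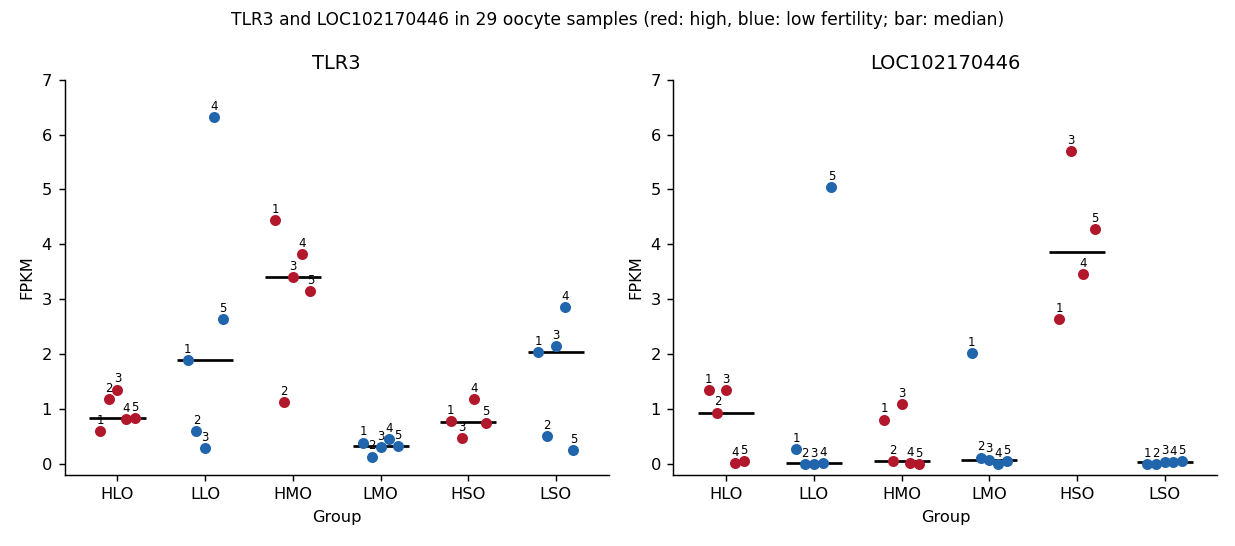
FPKM of TLR3 and LOC102170446 in each sample, by group, with the sample number above each point and the group median as a bar. TLR3 does not overlap between HMO and LMO, LOC102170446 does not overlap between HSO and LSO, and single LLO samples hold high values of each, TLR3 in replicate 4 (6.32 FPKM) and LOC102170446 in replicate 5 (5.04 FPKM).

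LOC102170446 showed its high values in small follicles of the high fertility population, the contrast it was selected on, so the difference is again a description. The HSO samples 1, 3, 4 and 5 stood at 2.64, 5.70, 3.46 and 4.28 FPKM. In LSO the gene was listed at 0 in samples 1 and 2 and stood at 0.042, 0.024 and 0.056 FPKM in samples 3, 4 and 5. The mean in HSO was 4.02 ± 1.31 FPKM (SD, n = 4), and the groups did not overlap. The log2(FPKM + 1) difference was 2.26. It was 3.06 with a pseudocount of 0.5 and 5.02 with a pseudocount of 0.1, so its size rests on the pseudocount and no ratio is given. The gene passed the filter in small follicles only through the 4 HSO samples, and without any 1 of them it fell under it. With no filter the difference then ranged from 2.11 to 2.40. Of 8376 genes compared in small follicles, 2.05% had groups that did not overlap. Granulosa markers summed to 0.633 to 1.51 FPKM in HSO and 0.887 to 7.19 FPKM in LSO, and leukocyte markers to 0.335 to 0.825 and 0.103 to 0.635 FPKM. Their part in the result was not tested.

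Outside small follicles LOC102170446 was present in some samples and near 0 in others of the same group. The HLO samples stood at 1.34, 0.933, 1.35, 0.013 and 0.044 FPKM. In LLO the gene was at 0.263 FPKM in replicate 1, listed at 0 in replicates 2 and 3, at 0.014 FPKM in replicate 4 and at 5.04 FPKM in replicate 5. That single LLO sample exceeded 3 of the 4 HSO samples. The HLO to LLO difference was 0.11 (SE 0.470, 95% interval -0.90 to 1.12, adjusted p = 0.960 by limma), and it changed sign to -0.040, -0.040 and -0.035 when LLO replicate 2, 3 or 4 was left out. Without LLO replicate 5, the sample at 5.04 FPKM, the gene fell under the filter, and with no filter the difference was 0.61 (unadjusted p = 0.0594, adjusted p = 0.972 by limma). Without HLO replicate 1, 2 or 3 the gene also fell under it, and the differences with no filter were -0.025, 0.045 and -0.025. HMO stood at 0.806, 0.046, 1.09 and 0.013 FPKM in replicates 1 to 4 and was listed at 0 in replicate 5. LMO stood at 2.02, 0.115 and 0.075 FPKM in replicates 1 to 3, was listed at 0 in replicate 4, and stood at 0.045 FPKM in replicate 5. In medium follicles the gene exceeded 0.5 FPKM in 2 HMO samples and 1 LMO sample and was not tested. By mean the groups ran from HSO through LLO, HLO, LMO and HMO to LSO, and every pair of neighbours overlapped. The mean log2(FPKM + 1) was 0.64 in large, 0.39 in medium and 1.04 in small follicles, given without a test because the small follicles include the samples on which the gene was chosen.

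LOC102170446 lies among other TRIM genes. In the RefSeq gene order (assembly ARS1.2, used for names and neighbours only) TRIM6 is 2 genes before it, and the TRIM5-like genes LOC102170165 and LOC102169889 are 3 and 5 genes after it. TRIM6 was detected in all 29 samples at 0.617 to 5.44 FPKM, with a median of 1.51 FPKM. Its Spearman correlation with LOC102170446 over the 29 samples was -0.09. The 6 table entries for the TRIM5-like genes reached at most 0.0284 FPKM in any sample. Near-identical TRIM copies can exchange or lose reads when only unique matches are kept, so the level of LOC102170446 is uncertain in that respect.

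DDX58 (ENSCHIG00000025883) exceeded 0.5 FPKM in all 29 samples, as no other member did, with a median of 2.40 FPKM. HLO stood at 2.48, 1.23, 1.70, 1.21 and 3.83 FPKM, and LLO at 3.76, 1.19, 1.61, 2.46 and 4.95 FPKM. HMO stood at 5.03, 1.11, 1.20, 2.40 and 3.02 FPKM, and LMO at 2.69, 0.586, 0.956, 3.58 and 2.95 FPKM. The HSO samples 1, 3, 4 and 5 stood at 2.99, 1.34, 2.29 and 3.34 FPKM, and LSO at 1.21, 1.22, 1.34, 4.89 and 2.46 FPKM. Every group held both low and high samples, and the groups overlapped at each follicle size. The differences, high minus low fertility, were -0.26 (SE 0.370, adjusted p = 0.866) in large, 0.18 (SE 0.378, adjusted p = 0.908) in medium and 0.19 (SE 0.347, adjusted p = 0.932) in small follicles by limma. Their 95% intervals ran from -1.06 to 0.53, from -0.64 to 0.997 and from -0.57 to 0.96. Neither the follicle size (adjusted p = 0.99998) nor the interaction of size and fertility (adjusted p = 0.943) passed limma's F-test.

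DDX58 also varied with the number in a sample's label. Samples numbered 2 stood between 0.586 and 1.23 FPKM and samples numbered 3 between 0.956 and 1.70 FPKM, whatever their group. Samples numbered 5 stood between 2.46 and 4.95 FPKM. Numbers 1, between 1.21 and 5.03 FPKM, and 4, between 1.21 and 4.89 FPKM, overlapped all of these. The split was not particular to DDX58. The RNA sensor TLR8 stood between 0.463 and 0.743 FPKM in samples numbered 2 and between 1.29 and 2.73 FPKM in samples numbered 5. For DHX58, a related helicase, these ranges were 0.473 to 0.712 and 0.819 to 6.23 FPKM. IRF3, TLR3 and LOC102170446 overlapped between numbers 2 and 5. The share of all genes with such a split was not counted. The labels do not say what the number stands for, and this split was noticed after the values were seen and carries no test.

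MAVS (ENSCHIG00000015699) and IFIH1 (ENSCHIG00000019848) stood near 0 beside DDX58. MAVS was at 0 in 21 samples, with highest values of 0.213 FPKM in HSO replicate 5 and 0.196 FPKM in LLO replicate 4. IFIH1 was at 0 in 18 samples, including all HMO and all HSO samples, and its highest value was 0.115 FPKM in HLO replicate 5. It was above 0 in 4 of 5 HLO and in 4 of 5 LLO samples, against 1 of 5 in LMO and 2 of 5 in LSO. These levels are all under the filter, so the counts describe the listed values only.

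IRF3 (ENSCHIG00000017942), on which both sensing routes converge, was present at a low level, with a median of 0.615 FPKM. HLO stood at 1.26, 1.35, 0.653, 0.876 and 0.126 FPKM. LLO stood at 0.570, 0.383, 2.32 and 0.045 FPKM in replicates 1, 3, 4 and 5 and was listed at 0 in replicate 2. HMO stood at 0.753, 1.11, 0.502, 0.510 and 0.437 FPKM and LMO at 0.615, 2.39, 1.05, 0.520 and 0.272 FPKM. In small follicles HSO stood at 0.354, 0.493, 1.07 and 0.654 FPKM and LSO at 1.47, 1.11, 1.33, 0.513 and 0.216 FPKM. Groups overlapped at each size, and the lowest value of each low fertility group lay below every sample of its high fertility counterpart. The differences were 0.26 (95% interval -0.45 to 0.96, adjusted p = 0.860), -0.17 (-0.71 to 0.37, adjusted p = 0.854) and -0.20 (-0.74 to 0.34, adjusted p = 0.903) in large, medium and small follicles by limma. The medium difference changed sign to 0.050 without LMO replicate 2. Follicle size (adjusted p = 0.99998) and the interaction (adjusted p = 0.921) did not pass limma's F-test.

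**Figure D3:**
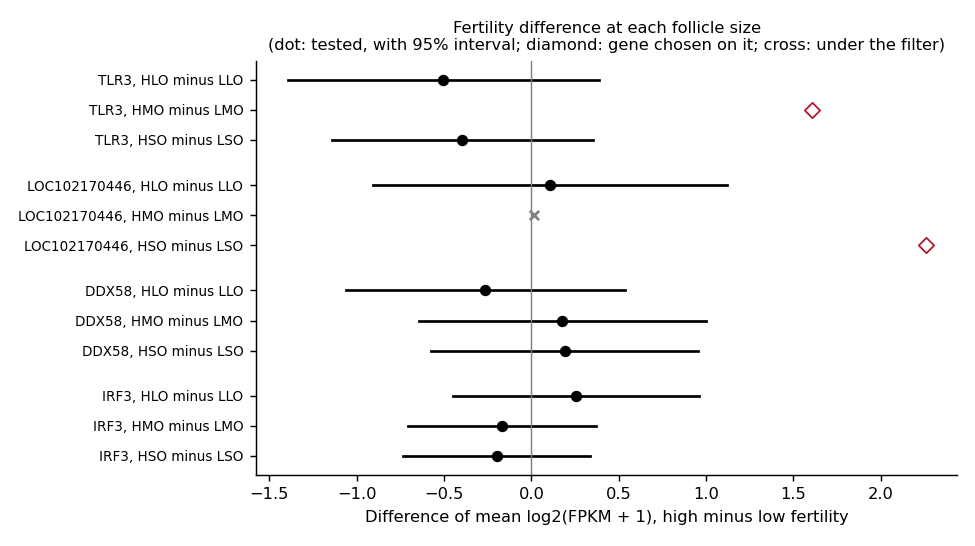
Difference of mean log2(FPKM + 1), high minus low fertility, for TLR3, LOC102170446, DDX58 and IRF3 at each follicle size, with the 95% interval of limma's fit where the gene was tested (black). All tested intervals cross 0. The diamonds at 1.61 (TLR3, medium) and 2.26 (LOC102170446, small) are the contrasts on which these genes were chosen and carry no interval, and the cross marks LOC102170446 in medium follicles, which was under the filter.

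No tested member passed an adjusted p of 0.05 between the fertility populations. In large follicles 4 members were tested and 0 called (adjusted p by limma), against 0% of all genes. In medium follicles 2 members other than TLR3 were tested and 0 called, against 0.0715% of all genes, and in small follicles 3 members other than LOC102170446 were tested and 0 called, against 0.0119% of all genes. None of these tests had an unadjusted p under 0.05, a limit passed by 4.14%, 8.67% and 4.41% of all genes at the 3 sizes. For follicle size and for the interaction 2 members, DDX58 and IRF3, were tested and 0 called, against 0% of all genes in both.

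The interferon-induced members were listed at or near 0. MX1 (ENSCHIG00000001865) was at 0 in 14 samples and reached 0.267 FPKM in LLO replicate 5 and 0.248 FPKM in LLO replicate 4. ISG15 (ENSCHIG00000017128) was at 0 in 22 samples, including all LLO and all HMO samples, and reached 0.171 FPKM in LSO replicate 1. EIF2AK2 (ENSCHIG00000016319) was above 0 in most samples and at 0 in 4, with a median of 0.168 FPKM. HLO stood at 0.156, 0.177, 0.177 and 0.184 FPKM in replicates 1, 2, 4 and 5 and at 0 in replicate 3, and LSO at 0.405, 0.0536, 0.168, 0.286 and 0.126 FPKM. LSO replicate 1 held the highest EIF2AK2 and the highest ISG15 value. In exact two-sided permutation tests of log2(FPKM + 1) between the populations at each follicle size, the p-values of IFIH1, MAVS, EIF2AK2, MX1 and ISG15 ranged from 0.167 to 1, before any adjustment. The smallest p these two-sided tests allow is 0.00794 at each follicle size, and samples tied at 0 can raise it.

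The other genes of antiviral sensing and of double-stranded RNA handling were then read from lists of 6 roles, 92 genes beside the 9. Of these 43 passed the filter over 29 samples (46.7%, against 45.4% of all genes), and 6 were listed at 0 in every sample. Among the RNA sensors and their partners, TLR8, an endosomal receptor for single-stranded RNA, had a median of 1.30 FPKM, and DHX58 (LGP2), a helicase related to DDX58 without its signalling domains, 1.15 FPKM. TICAM1, the adaptor that TLR3 signals through, was at 0 in 16 samples and had a highest value of 0.483 FPKM. For DNA sensing, CGAS, which makes the messenger cGAMP on cytosolic DNA, had a median of 1.62 FPKM, whereas its receptor TMEM173 (STING) was at 0 in 27 samples with a highest value of 0.0599 FPKM, and ZBP1 had a median of 0.0614 FPKM.

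On the way from the sensors to IRF3 and NF-kB, the scaffold TANK had a median of 8.90 FPKM on 1 of its 2 gene entries, and the ubiquitin ligase TRAF6 had 2.69 FPKM. TBK1, the kinase that activates IRF3, had a median of 0.207 FPKM. In the interferon response, the kinase JAK1 had a median of 4.16 FPKM and the transcription factor IRF9 0.533 FPKM. The interferon receptor chain IFNAR1 had a median of 0.107 FPKM, and IFNAR2 was listed at 0 in all 29 samples. JAK1 was above 0.5 FPKM in all 29 samples.

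Among the effectors, IFIT5, which binds RNA ends, had a median of 5.55 FPKM, the nuclear body protein SP110 3.11 FPKM and HERC5, the ligase for ISG15, 2.47 FPKM. By contrast, 12 of the 29 effector entries had a median of 0. The list of double-stranded RNA binding and processing had the highest share of detected genes: 19 of 24 entries passed the filter. It also holds genes of translation control, such as EIF2S1, EIF2AK4 and PPP1R15B, so this share does not describe RNA-binding genes alone. The helicase DHX36 had a median of 16.4 FPKM, TARBP2, the partner of Dicer, 8.90 FPKM, and EIF2S1, the translation factor that EIF2AK2 phosphorylates, 8.48 FPKM. DICER1 had 3.91 FPKM. EIF2AK2 was thus listed well below its substrate and below these genes of the same list, per unit of length.

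**Figure D4:**
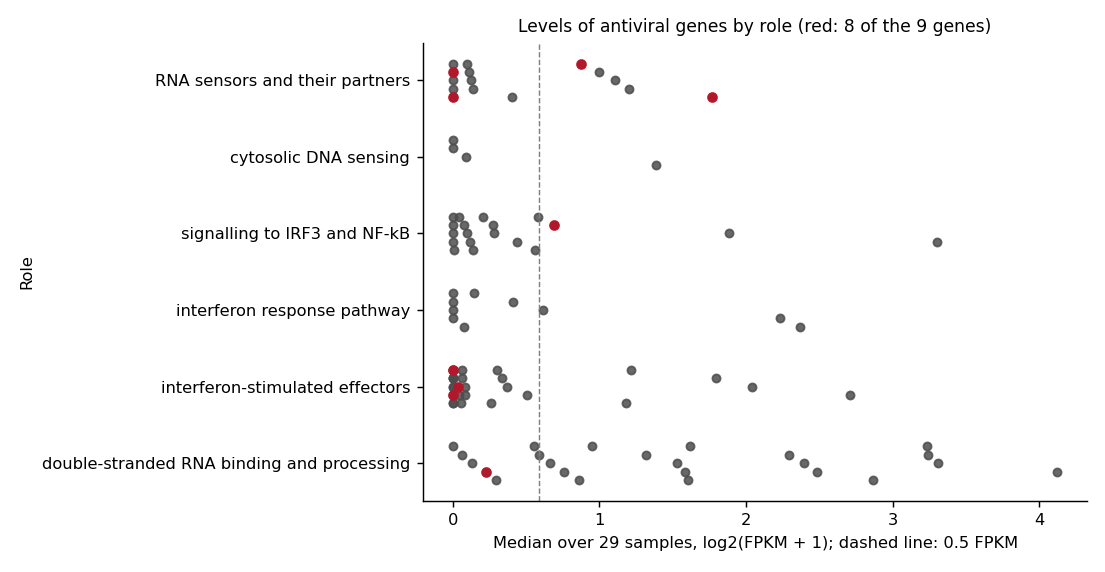
Median FPKM over 29 samples, as log2(FPKM + 1), of each gene entry in 6 role lists (rows), with 8 of the 9 genes in red (IFIH1 is on 2 lists, LOC102170446 on none) and the limit of 0.5 FPKM dashed. Most entries of the double-stranded RNA list, which also holds translation control genes, lie to the right of the limit, with DHX36 farthest right (16.4 FPKM). Most effectors lie at or near 0.

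Of the other antiviral genes, 38 were tested between HLO and LLO, 35 between HMO and LMO and 37 between HSO and LSO, and 0 passed an adjusted p of 0.05 by limma at any size, with 4, 1 and 2 at an unadjusted p under 0.05. By the limits of an unadjusted p under 0.05 and a log2 difference beyond 1, 1 gene was higher and 1 lower in HLO than in LLO, against 1.78% and 0.516% of all genes, and 0 in medium follicles (2.85% and 0.548% of all genes) and small follicles (0.919% and 0.776%). The gene higher in HLO was IFIT5, at 5.98, 3.13, 23.6, 0.557 and 69.6 FPKM in HLO and 1.62, 0.245, 4.15, 0.245 and 1.40 FPKM in LLO. Its difference was 2.12 (SE 0.853, adjusted p = 0.828 by limma), and HLO replicate 4 lay below 3 of the 5 LLO samples. The gene lower in HLO was PRKRA, the activator of EIF2AK2 and a partner of Dicer, at 1.43, 1.05, 1.44, 0.432 and 2.07 FPKM in HLO and 2.64, 3.59, 0.455, 13.2 and 6.25 FPKM in LLO. Its difference was -1.11 (SE 0.514, adjusted p = 0.828 by limma). Both genes overlapped between the groups. Without LLO replicate 2 or LLO replicate 4 no gene was higher by these limits, and without any 1 of HLO replicates 1 to 4 or LLO replicates 2 and 5 none was lower. The median difference of the tested genes was -0.22, -0.20 and -0.05 in large, medium and small follicles, beside -0.09, -0.07 and -0.01 over all genes. Between follicle sizes 0 of 43 genes were called by adjusted p, with 2 at an unadjusted p under 0.05 (1.66% of all genes). For the interaction 0 of 43 were called, with 1 at an unadjusted p under 0.05 (7.89% of all genes).

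The genes whose levels ran most like those of TLR3 were read from 9654 genes by Spearman correlation over the 29 samples. They were FGF12, an intracellular fibroblast growth factor (0.89), DPP4, a membrane peptidase (0.83), ARMC4, a protein of cilia (0.83), LOC102169913 (0.81) and the EPHA6 entry ENSCHIG00000022528, an ephrin receptor (0.81). The symbol EPHA6 stands on 2 entries. 50 genes exceeded 0.7. These are the highest of many correlations and were not tested. FGF12 stood at 6.54, 0.712, 2.07, 2.76 and 5.33 FPKM in HMO and at 0.298, 0.0675, 0.312 and 0.179 FPKM in LMO replicates 1, 3, 4 and 5, and was listed at 0 in LMO replicate 2. DPP4 stood at 65.9, 11.003, 135, 77.8 and 43.9 FPKM in HMO and at 9.19, 0.693, 6.07, 5.62 and 5.41 FPKM in LMO. As for TLR3, HMO replicate 2 was the lowest HMO sample in both genes and LLO replicate 4, at 3.75 and 83.9 FPKM, the highest LLO sample. Both genes were picked for likeness to TLR3 over these samples, so such matches are not separate results. No other member was among the 5 genes. The correlation of TLR3 with DDX58 was 0.30 and with LOC102170446 -0.02.

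**Figure D5:**
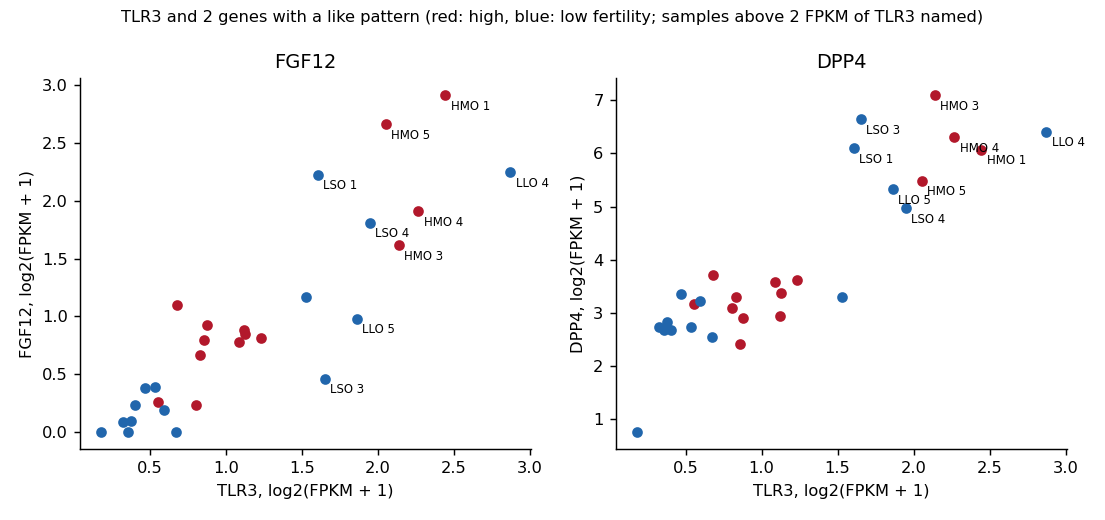
TLR3 (horizontal) against FGF12 and DPP4 (vertical) in the 29 samples, all as log2(FPKM + 1), red for high and blue for low fertility, with the samples above 2 FPKM of TLR3 named. HMO replicates 1, 3, 4 and 5, LLO replicates 4 and 5 and LSO replicates 1, 3 and 4 are the named samples, and the Spearman correlations are 0.89 and 0.83.

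For LOC102170446 the closest genes were SPEF2, a sperm flagellar protein (0.66), FGFBP1, a carrier of fibroblast growth factors (0.66), LOC102179561 (0.64), ARMCX5 (0.62) and LOC102178000 (0.61), and 0 of 9654 genes exceeded 0.7. SPEF2 stood at 4.34, 5.35, 3.44 and 2.75 FPKM in HSO and at 0.731, 1.32, 1.97, 2.26 and 1.52 FPKM in LSO, without overlap. It was picked for its likeness to LOC102170446 over the same samples, so this is not a separate result. Unlike LOC102170446, the lowest SPEF2 value of the 29 samples was 0.491 FPKM. LOC102170446 exceeded 0.5 FPKM in only 11 samples and had a median of 0.0562 FPKM, so its order over samples rests largely on values near 0. For EIF2AK2 the closest genes were the FAM96A entry ENSCHIG00000026360 (0.73), MAL2 (0.72), NAXE (0.70), TLK1 (0.68) and TNKS2 (0.66). EIF2AK2 itself stayed under 0.5 FPKM, so its order over samples rests on very low values. The FAM96A entry had a median of 0 FPKM, so its correlation also rests on many samples tied at 0.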

How the data were processed

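The members and gene lists were chosen with earlier results of these data known. The authors aligned reads to the goat genome, kept unique matches with few mismatches, removed duplicates with picard and deposited FPKM values from Cufflinks 2.2.1, run on Ensembl gene models. The genome build and the aligner are not given in the sources used here. Unique matching can lower genes with near-identical copies, and FPKM hold no counts. 1 value column matched no sample in use and was left out. Groups came from the sample titles. A gene was tested where 4 or more of the compared samples exceeded 0.5 FPKM, on log2(FPKM + 1) with limma 3.58.1 in R 4.3.3, moderated with a trend, for each fertility pair alone, and over 29 samples for follicle size (fertility as covariate) and the interaction. P-values were adjusted by Benjamini-Hochberg over all genes tested. Genes were also counted at an unadjusted p under 0.05 and a log2 difference beyond 1. TLR3 in medium and LOC102170446 in small follicles, and follicle size and the interaction for both genes, were described without a test. Named genes were the 9 members, list genes past these limits, the 3 genes of highest median per role, and for TLR3, LOC102170446 and EIF2AK2 the 5 genes of highest Spearman correlation. Some genes that the rule takes in are not reported here. TICAM1, TMEM173, TBK1, IFNAR1, IFNAR2, DICER1, TRIM6, HSD17B2, CXCL10 and CCL19 were named after their values were seen. Alternatives covered the pseudocount, the filter, scaling, weights, a replicate block and leaving out each sample. The fits without a sample and with no filter, for a member that then left the filter, were added after the data were seen. The fits were also run on simulated data with known changes and independent samples. These data held no effect shared by a replicate number, so they do not show how the fits behave under one.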

Additional observations from a re-analysis of the deposited data

Results flagged for a closer look

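In 3 of 24 groups examined (the 4 detected members in 6 groups of 4 or 5 samples), 1 sample lay far from the others by Dixon's criterion at 95%. Its chance rate of about 1 group in 20 holds for normally distributed values. The FPKM were used untransformed, with many LOC102170446 values near 0, so the count is not set against that rate. LOC102170446 was at 5.04 FPKM in LLO replicate 5, with the next sample at 0.263 FPKM. It was at 2.02 FPKM in LMO replicate 1, with the next at 0.115 FPKM. IRF3 was at 2.32 FPKM in LLO replicate 4, with the next at 0.570 FPKM. LLO replicate 4 also held the highest TLR3 value of the series.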

How the results depend on the processing

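No alternative brought a tested member past an adjusted p of 0.05. Some differences that were not called changed sign: LOC102170446 between HLO and LLO to -0.040, -0.040 and -0.035 without LLO replicate 2, 3 or 4 and, with no filter, to -0.025 and -0.025 without HLO replicate 1 or 3 (range when 1 sample was left out -0.040 to 0.28, and 0.61 without LLO replicate 5 and with no filter), DDX58 between HMO and LMO to -0.30 with array weights, -0.041 without HMO replicate 1 and -0.040 without LMO replicate 2 (range -0.041 to 0.34), and IRF3 there to 0.12 with array weights and 0.050 without LMO replicate 2 (range -0.30 to 0.050). The TLR3 difference in medium follicles ranged from 1.49 to 1.83 when 1 sample was left out. For the other antiviral genes, those higher in HLO by the limits (1) numbered 3 with a pseudocount of 0.1 or 0.5. These were 7.89% of the 38 tested, beside 3% and 2.39% of all genes. They numbered 0 with array weights (3.69% of all genes) and 0 to 2 when 1 sample was left out. Those lower (1) numbered 0 with a pseudocount of 0.1 or 0.5, with no filter or with median-of-ratios factors. In these fits 0.263% to 1.1% of all genes were lower. With array weights they numbered 4, 10.5% of the 38 tested beside 6.78% of all genes. Leaving out 1 sample gave 0 to 3 (3 without LLO replicate 3 and 2 without HLO replicate 5). Between HMO and LMO array weights called 4 genes by adjusted p and 3 as lower by the limits, where 0 were called, 11.4% and 8.57% of the 35 tested beside 12.1% and 8.16% of all genes in that fit, and leaving out 1 sample gave 0 to 1 as lower (1 without HMO replicate 2). Between HSO and LSO a pseudocount of 0.1 gave 1 higher and 1 lower, each 2.7% of the 37 tested, beside 1.62% and 1.87% of all genes. The causes were not tested. The labels do not say what a replicate number shares. Same-numbered samples of a fertility pair were compared by their deviations from the mean of their group, over the genes passing the filter. These deviations correlated from -0.48 to 0.71. Of 14 pairs, 10 were over 0.1 and 7 correlated best with their own number. No chance rate was set beside these counts. Many pairs thus deviated together, but not all. The main fits leave the number out, and the block was kept as an alternative. With a replicate block 0 members were called. The other antiviral genes gave 1 higher and 1 lower between HLO and LLO, each 2.63% of the 38 tested, beside 3.36% and 1.26% of all genes. Elsewhere they gave 0, beside 3.84% and 0.632% of all genes in medium and 1.66% and 2.17% in small follicles. By adjusted p the block called 1.51% of all genes between HMO and LMO, where the main fit called 0.0715%. Leaving out any HSO sample put LOC102170446 under the filter in small follicles, and with no filter its difference was 2.11 to 2.40. Without fragment counts, no counting error can be set beside the values near 0.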

Other observations

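CXCL10 and CCL19, chemokines that antiviral and NF-kB signalling can raise, and HSD17B2, a steroid dehydrogenase, were looked at after the values of TLR3 were seen, and nothing was tested on them. CXCL10 (ENSCHIG00000015403) stood at 3.53, 0.117, 1.15, 1.24 and 2.41 FPKM in HMO replicates 1 to 5, where TLR3 was lowest in replicate 2 as well. In LMO it was listed at 0 in replicates 1 and 2 and reached 0.188 FPKM in replicate 4. In LSO it stood at 2.48, 0.0307, 1.46, 2.51 and 0.167 FPKM, high in the 3 samples where TLR3 was above 2 FPKM. Its highest value, 5.57 FPKM, was in LLO replicate 4, which also held the highest TLR3 value, while LLO replicate 5, at 2.63 FPKM of TLR3, was listed at 0 for CXCL10.

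CCL19 (ENSCHIG00000018403) stood at 2.18, 2.25, 2.95 and 1.83 FPKM in HMO replicates 1, 3, 4 and 5 and was listed at 0 in HMO replicate 2 and in all 4 HSO samples. It reached 6.72 FPKM in LLO replicate 4 and 5.75 FPKM in LSO replicate 1. HSD17B2 stood at 25.3, 0.0443, 12.7, 17.7 and 27.4 FPKM in HMO, at 41.7 FPKM in LLO replicate 4, and at 18.5, 0.0489, 7.44, 18.0 and 0.0754 FPKM in LSO. In HLO and HSO HSD17B2 reached at most 0.113 and 0.122 FPKM. The Spearman correlation with TLR3 over the 29 samples was 0.61 for CXCL10, 0.66 for CCL19 and 0.54 for HSD17B2. Each lies below 0.7, a value that 50 of 9654 genes exceeded, so many other genes ran closer to TLR3. MX1 and ISG15, which interferon also raises, stayed under 0.5 FPKM in all 29 samples, not in these samples alone. Of the 29 effector entries 9 passed the filter, among them IFIT5 with a median of 5.55 FPKM and IFIT1 with 1.32 FPKM. A part of interferon in the levels of TLR3 or the chemokines was not tested.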
